A study of Mus musculus with 8 samples.

Results

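The question here was whether the loss of the glucose transporters GLUT1 and GLUT3 changed gene expression differently in 32D cells with wild-type Jak2 and in 32D cells with the V617F form of this kinase. 32D is an immortalised mouse myeloid cell line from bone marrow that needs interleukin-3, and the labels describe it as myeloblast-like. All cells had been transduced, and the transgenes included murine Jak2WT or Jak2V617F. Within each background, clones grown from single cells either kept both transporters (GLUT1/3 WT) or had lost both after Cas9 editing of Slc2a1 and Slc2a3 (GLUT1/3 dKO). The 4 groups were thus Jak2WT GLUT1/3 WT, Jak2WT GLUT1/3 dKO, Jak2V617F GLUT1/3 WT and Jak2V617F GLUT1/3 dKO, with 2 clones each, numbered 1 and 3. Before RNA was taken all clones spent 24 h in medium without pyruvate that held glucose at 5 mM, glutamine at 1 mM and interleukin-3 at 2 ng/ml.

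Of the 56748 genes in the deposited table, the 11818 with an FPKM (fragments scaled to transcript length and library size) that reached 1 in 2 or more of all 8 libraries were examined. For each of them the dKO effect was the mean log2(FPKM + 1) of the dKO clones minus that of the GLUT1/3 WT clones of the same background. The interaction was the dKO effect in Jak2V617F minus the dKO effect in Jak2WT, so that a positive value means a larger rise or a smaller fall in Jak2V617F. A gene was called at a limma p-value below 0.05 after Benjamini-Hochberg adjustment across the 11818 genes. Each p-value rests on the spread between 2 clones a group, and the editing events of the clones of one background need not be independent, so clone lineage and GLUT loss cannot be told apart. For a single gene an exact permutation of 2 against 2 clones cannot go below p = 0.333.

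GLUT1 and GLUT3 carry glucose across the plasma membrane, and GLUT3 has the higher affinity. Hexose that enters feeds glycolysis, the pentose phosphate route and protein glycosylation in the endoplasmic reticulum, so that a lack of it is known to evoke the unfolded protein response. JAK2 transmits signals from cytokine receptors, and the V617F form signals without ligand when such a receptor is present, which is a feature of myeloproliferative neoplasms. Cells with active JAK2 are known to take up and use much glucose, which is the reason for comparing the backgrounds.

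The guides show where the transporter genes were cut, and both are given with the PAM in capitals and the guide in lower case. The first lies in coding exon 3 of 10 of Slc2a1 (chr4:118989341-118989360, GRCm39, forward strand), and the second in coding exon 3 of 10 of the first annotated transcript of Slc2a3 (chr6:122716798-122716817, reverse strand). The study's methods number the Slc2a3 exon differently, and the numbering may follow another transcript. Another GLUT1 guide of the study is not reported here.
Slc2a1 guide: caaacatggaaccaccgctaCGG
Slc2a3 guide: ggactctttgtcaaccgcttTGG

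Slc2a1 transcripts were lower in the dKO clones of both backgrounds. In Jak2WT, Slc2a1 stood at 44.7 and 48.4 FPKM in the GLUT1/3 WT clones and at 9.47 and 9.17 in the dKO clones, and in Jak2V617F at 64.0 and 52.97 against 17.3 and 12.7. The dKO effects were -2.20 in Jak2WT and -1.90 in Jak2V617F, and the interaction was 0.30 (standard error 0.21, limma adjusted p = 0.371). Slc2a3 was at 97.7 and 91.9 FPKM in Jak2WT GLUT1/3 WT, at 16.03 and 49.5 in Jak2WT dKO, at 198.5 and 166 in Jak2V617F GLUT1/3 WT, and at 48.2 and 23.8 in Jak2V617F dKO. The groups of a background did not overlap for either transporter, although the Jak2WT effect on Slc2a3 missed the threshold (-1.71, limma adjusted p = 0.0612) and its interaction was -0.68 (95% interval -2.31 to 0.96). The interaction was called for neither transporter, and the wide interval for Slc2a3 leaves room for a difference in either direction. How reads of the transduced murine Jak2 were counted beside the endogenous gene is not given in the sources used here. Jak2 was at 218 to 258 FPKM in the Jak2WT clones and at 139 to 165 in the Jak2V617F clones, with an interaction of 0.30 (limma adjusted p = 0.160).

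The libraries held between 16846011 and 48884329 recovered reads, and their summed FPKM lay between 279496 and 329939. Of 9 myeloblast markers, Prtn3 and Spi1 had an FPKM of at least 1 in every library, Kit and Cebpa were listed at 0 in all, and Mpo, Elane, Ctsg and Ms4a3 were at most 0.282, so few defining markers of the labelled cell type were present. Markers of T cells, B cells and fibroblasts summed to at most 0.708 FPKM in every library. The summed FPKM of 7 erythroid markers, most of it from globins, ran from 63.1 to 83.2 in Jak2WT GLUT1/3 WT, from 221 to 262 in Jak2WT dKO, from 502 to 852 in Jak2V617F GLUT1/3 WT and from 2544 to 4624 in Jak2V617F dKO. Of these markers Alas2 was at most 0.227 in every library. The 5 megakaryocyte markers, mostly Itga2b, summed to 63.2 to 90.2 FPKM in the Jak2WT clones and to 177 to 222 in the Jak2V617F clones. The 6 mast cell or basophil markers summed to 167 to 222 and to 121 to 164. In Jak2WT this sum was mostly Gata2 and Cpa3. In Jak2V617F it was almost all Gata2, since Cpa3 was at most 1.67 FPKM there, against 50.8 to 100.5 in Jak2WT. The erythroid sum thus moved with both factors of the design, and its part in the results was not tested. In bulk RNA, fewer cells of a type and less RNA per cell cannot be told apart.

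The dKO effect differed between backgrounds for 1256 genes, which is 10.6% of those tested. The interaction was positive for 558 (4.72%) and negative for 698 (5.91%). The dKO effect itself was called in more genes in Jak2V617F, with 1614 higher (13.7%) and 1919 lower (16.2%), than in Jak2WT, with 901 higher (7.62%) and 716 lower (6.06%). Among the 1256 genes, the dKO effect was called in Jak2V617F alone for 792, in Jak2WT alone for 255, in both for 153 and in neither for 56. Wwox, which encodes a putative tumour suppressor with oxidoreductase homology, is a gene of the first kind, Tspoap1, which encodes a scaffold protein, is one of the second, and Prg2, which encodes eosinophil major basic protein, was called in both, in opposite directions. The size of these counts depended on single libraries, above all of Jak2WT. Without Jak2WT GLUT1/3 WT clone 3 only 5 genes were called, without Jak2WT GLUT1/3 WT clone 1 there were 68, and without Jak2WT dKO clone 1 there were 63. Unadjusted p-values below 0.05 were held by 3570 genes with all libraries and by 2693, 2608 and 2507 genes without each of these. Without Jak2V617F GLUT1/3 WT clone 1 there were 360 calls, without clone 3 of that group 748, and without Jak2WT dKO clone 3 there were 534. The split also depended on scaling, since with every library brought to the same summed FPKM there were 1177 positive and 393 negative calls (75% positive against 44.4%) and the median interaction over all genes moved from -0.04 to 0.12.

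**Figure D1:**
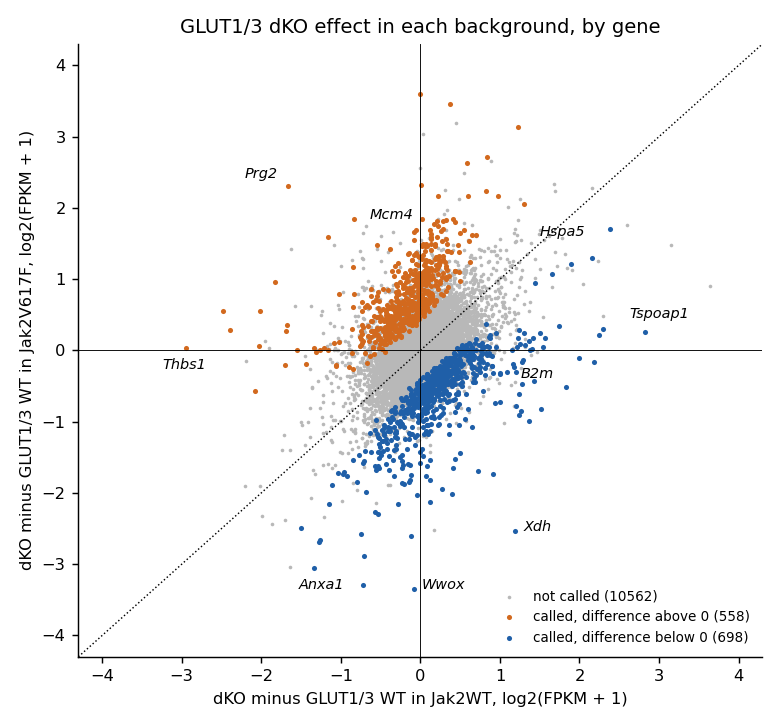
Each point is a gene, with its dKO effect in Jak2WT on the horizontal axis and in Jak2V617F on the vertical axis, both as differences of mean log2(FPKM + 1). The dotted line marks equal effects. The 558 genes called with a positive interaction (orange) lie above it, the 698 with a negative one (blue) lie below it, and grey points are the 10562 genes not called.

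The effects in the 2 backgrounds were not unrelated. Across the 11818 genes they had a Pearson correlation of 0.37, which is given as a description because genes are not independent replicates. In the same direction, 670 genes were called in both backgrounds, 317 higher and 353 lower, and 70 of them were also called in the interaction. For 258 of the 670 the 95% interval of the interaction lay within 0.5 of 0, and for 572 it lay within 1 of 0. For a typical gene this interval reached 0.39 to either side, so that small differences between backgrounds were not detectable.

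Among the 1256 genes, 813 had dKO effects of opposite sign in the 2 backgrounds, 370 had effects of the same sign that were larger in Jak2V617F, 67 had effects of the same sign that were larger in Jak2WT, and 6 had an effect of exactly 0 in one background. Opposite effects that were each called numbered 83, with 36 genes higher in Jak2V617F dKO and lower in Jak2WT dKO and 47 the other way round. The groups were also compared by order: in 803 of the 1256 genes both Jak2V617F GLUT1/3 WT clones lay outside the range of the other 6 libraries, against 31.2% of all genes tested. The same held for Jak2V617F dKO in 518 genes (23.6% of all tested), for Jak2WT GLUT1/3 WT in 418 (25.3%) and for Jak2WT dKO in 208 (17.7%), and a gene may count for 2 groups. The group that most often stood apart was hence the Jak2V617F group with intact transporters, except that without Jak2V617F dKO clone 3 the count was 726 for that group and 769 for Jak2V617F dKO. The difference between backgrounds was smaller among the dKO clones than among the GLUT1/3 WT clones in 866 of the 1256 genes (68.95%), compared with 57.64% of all genes tested. These orders share their libraries with the interaction and describe it.

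The most negative interactions were led by genes that were high in Jak2V617F GLUT1/3 WT and not in the other groups. This pattern is read from the values that chose the genes and is a description. Xdh (ENSMUSG00000024066, chr17:74190890-74257191, mm39), which encodes xanthine dehydrogenase, which makes uric acid at the end of purine breakdown, stood at 11.2 and 14.7 FPKM in Jak2V617F GLUT1/3 WT and at 0.92 and 1.99 in Jak2V617F dKO, but at 0.23 and 0.10 in Jak2WT GLUT1/3 WT and 1.94 and 1.41 in Jak2WT dKO. The dKO clones of both backgrounds had thus come to overlapping levels from opposite sides, with an interaction of -3.73 (standard error 0.33, limma adjusted p = 0.00867). Wwox (chr8:115166395-116079447) was at 26.8 and 23.01 FPKM in Jak2V617F GLUT1/3 WT and between 1.49 and 1.85 in all other libraries (interaction -3.27, standard error 0.15, limma adjusted p = 0.000586). Ablim1, which encodes an actin-binding protein, was at 5.84 and 6.16 FPKM in Jak2V617F GLUT1/3 WT and at most 0.22 elsewhere. It passed the expression filter through that group alone, which favoured a negative interaction. Sele, which encodes E-selectin, was at 6.97 and 9.22 FPKM in that group, at 1.59 and 0.91 in Jak2V617F dKO and at most 0.52 in Jak2WT. Anxa1, which encodes the phospholipid-binding annexin A1, showed another pattern, since it was between 10.2 and 29.5 FPKM in 6 libraries and at 0.72 and 1.58 in the Jak2V617F dKO clones (interaction -2.57, limma adjusted p = 0.0184).

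Other negative interactions arose in Jak2WT. Tspoap1 went from 1.21 and 1.01 FPKM in Jak2WT GLUT1/3 WT to 14.9 and 12.9 in Jak2WT dKO, while in Jak2V617F it was at 3.57 and 5.28 without and at 3.87 and 7.38 with the deletions, which overlap. Its dKO effect was 2.82 in Jak2WT and 0.25 in Jak2V617F. Rhag, which encodes the Rh-associated glycoprotein of the red cell membrane, rose by 1.83 in Jak2WT dKO (6.17 and 10.3 to 31.4 and 30.7 FPKM), whereas in Jak2V617F it was at 133 and 133 FPKM in GLUT1/3 WT and 89.3 and 97.3 in dKO, an effect of -0.51 that was not called. Actg2, a smooth muscle actin gene, rose from 0.097 and 0 to 3.31 and 4.22 FPKM in Jak2WT dKO and was between 0.65 and 1.12 FPKM in the Jak2V617F clones. Abcc2, which encodes an organic anion exporter, rose in Jak2WT dKO (0.19 and 0.15 to 2.38 and 2.31 FPKM) and fell in Jak2V617F dKO (0.78 and 1.02 to 0.10 and 0.033 FPKM). The lncRNA 1810073O08Rik, the organic cation transporter gene Slc22a3 and Myct1 complete the 12 most negative, with interactions of -2.65, -2.42 and -2.35, and the calls of the latter pair were held in 6 of 18 alternative analyses each.

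Prg2 and Epx, which encode proteins of eosinophil granules, were among the 12 most positive interactions, while the list of granulocyte granule genes had no called member. Prg2 (ENSMUSG00000027073, chr2:84810805-84813976) was at 89.4 and 62.7 FPKM in Jak2WT GLUT1/3 WT and at 28.7 and 18.4 in Jak2WT dKO, while it was at 0.33 and 1.40 in Jak2V617F GLUT1/3 WT and at 4.91 and 12.2 in Jak2V617F dKO. It therefore fell by 1.66 in one background and rose by 2.30 in the other, with an interaction of 3.96 (standard error 0.61, limma adjusted p = 0.0156). Epx, which encodes eosinophil peroxidase, went from 41.0 and 28.4 to 8.49 and 6.98 FPKM in Jak2WT, but it was at most 0.768 FPKM in every Jak2V617F library (interaction 2.56, limma adjusted p = 0.00867). Prg3, which lies beside Prg2 and was looked up after the values of its neighbour were seen, showed 4.50 and 3.04 FPKM against 0.74 and 0.26 in Jak2WT and at most 0.54 in Jak2V617F (interaction 2.03, limma adjusted p = 0.0184). For Epx and Prg3 the dKO effect was thus called in Jak2WT, the background that expressed them, and it was not called in Jak2V617F.

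Several further positive interactions were of this kind, with most of the expression in one background. Thbs1, which encodes thrombospondin, was at 14.1 and 5.12 FPKM in Jak2WT GLUT1/3 WT and at 0.35 and 0.16 in Jak2WT dKO, and at no more than 0.043 in Jak2V617F. Arnt2, a partner of bHLH-PAS factors, was at 4.23 and 2.77 FPKM in Jak2WT GLUT1/3 WT and at most 0.18 in all others. Trbv13-2 and Trbv12-2, segments of the T cell receptor beta locus on chr6, were at 54.5 and 60.5 and at 10.3 and 8.23 FPKM in Jak2WT GLUT1/3 WT, at 12.1 and 7.34 and at 1.55 and 0.47 in Jak2WT dKO, and listed at 0 in both Jak2V617F GLUT1/3 WT clones. Such segments resemble each other, so how reads were split among them is uncertain. On the other side, Sval1 was listed at 0 in all Jak2WT clones and went from 0.076 and 0.16 to 7.06 and 21.98 FPKM in Jak2V617F, and Muc20, which encodes a membrane mucin, went from 0.51 and 0.48 to 9.82 and 4.17 FPKM there. The embryonic alpha globin gene Hba-x rose from 0.40 and 0.18 to 24.6 and 6.72 FPKM in Jak2V617F and was at most 0.454 FPKM in Jak2WT. Where a gene is near 0 in one background, its interaction is the effect in the other background on the log2(FPKM + 1) scale and says nothing of fold changes in the former. Thbs1, Arnt2, Sval1, Muc20 and Hba-x, for example, passed the expression filter through a single group, which favoured an interaction. Gm26189, Gm52987 and ENSMUSG00002075556 are annotated as a small nuclear RNA, a pseudogene and a microRNA precursor, short entries that complete the 12, with interactions of 2.76, 2.68 and 2.78. Muc20 lies on chromosome 16, whose level differed between Jak2V617F clones as described further on.

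Genes of DNA replication rose in Jak2V617F dKO and, with few exceptions, did not pass the test in Jak2WT dKO. Of 39 tested members of this list, 37 were called higher in Jak2V617F, and 1 higher and 1 lower in Jak2WT, against 13.7%, 7.62% and 6.06% of all genes. A positive interaction was called for 30 and a negative one for none, against 4.72% and 5.91%. By voom on the recovered reads 31 were called positive and none negative, and at an unadjusted limma p below 0.05 there were 36 and 0. Over all 11818 genes voom called 762 positive and 992 negative, and 3570 had an unadjusted limma p below 0.05. Later counts by these tests are to be read against these numbers. All 39 interactions were above 0, with a median of 0.97 compared with -0.04 over all genes. The median was between 0.86 and 1.02 when each library was left out in turn. Mcm4, a subunit of the replicative helicase, was at 58.3 and 62.5 FPKM in Jak2WT GLUT1/3 WT, 61.7 and 69.6 in Jak2WT dKO, 25.7 and 21.6 in Jak2V617F GLUT1/3 WT, and 75.9 and 81.1 in Jak2V617F dKO. The Jak2V617F GLUT1/3 WT clones were the low group, and the dKO clones of this background stood somewhat above all Jak2WT clones. Cdc6, which loads the helicase at origins, had the same low and high groups, with 10.7 and 10.5, 15.1 and 18.2, 4.98 and 3.00, and 20.3 and 21.8 FPKM in the 4 groups as listed above (interaction 1.57, standard error 0.26, limma adjusted p = 0.0174). Its Jak2WT effect was 0.60 (95% interval 0.18 to 1.03) and was not called (limma adjusted p = 0.0669). Cdc45, another helicase component, and Fen1, a flap endonuclease, had interactions of 1.44 and 1.35.

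Genes that make deoxynucleotides, respond to damaged forks or govern entry into S phase also had positive interactions, in part of each list. Rrm2, a subunit of ribonucleotide reductase, was at 66.7 and 70.7 FPKM, 63.3 and 78.2, 27.6 and 21.96, and 71.2 and 70.7 in Jak2WT GLUT1/3 WT, Jak2WT dKO, Jak2V617F GLUT1/3 WT and Jak2V617F dKO. Tk1, Dut and Tyms, which supply thymidine nucleotides, had interactions of 1.38, 1.13 and 1.12, and 7 of 21 enzymes of nucleotide synthesis were called positive and none negative, against 4.72% and 5.91% of all genes. In the list for homologous recombination and checkpoints, 18 of 32 members were called positive and none negative, beside the same shares, with a median interaction of 0.71, and voom called 22 positive and none negative. The other 14 did not pass the limma test. Brca1, a central factor of homologous recombination, went from 4.32 and 3.55 to 13.2 and 15.3 FPKM in Jak2V617F and stayed between 9.50 and 11.4 in Jak2WT. Clspn, which serves the ATR and CHK1 checkpoint, Rad54l and Bard1 had interactions of 1.46, 1.21 and 1.20. Among 23 regulators of G1 and E2F activity, 10 were called positive, against 4.72% of all genes, and 1 negative, E2f5 (-0.89), a partner of pocket proteins that was looked up after its value was seen. Ccne1, which encodes cyclin E1, went from 6.05 and 4.04 to 20.9 and 17.8 FPKM in Jak2V617F with 16.4 to 19.8 in Jak2WT. E2f2, E2f7 and E2f1 had interactions of 1.63, 1.35 and 1.17. E2f2 was not low in Jak2V617F GLUT1/3 WT, at 6.67 and 5.26 FPKM against 4.94 to 5.67 in Jak2WT, and stood at 26.1 and 14.2 in Jak2V617F dKO. The RT-qPCR genes Chek1, E2f1, Pcna and Pidd1 were picked by the study on these samples and are no independent evidence. Their interactions were 0.81, 1.17, 1.04 and 1.28, and all 4 were called.

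Some mitotic genes rose in Jak2V617F dKO and others fell in Jak2WT dKO. Of 32 tested, 12 were called higher in Jak2V617F dKO and 12 lower in Jak2WT dKO, of which 3 were called in both (Mki67, Ndc80 and Kif20a, the last a kinesin gene named after its values were seen), and 16 had a called positive interaction with none negative. Over all genes the shares were 13.7% called higher in Jak2V617F, 6.06% lower in Jak2WT and 4.72% with a positive interaction. Voom called 19 of the mitotic genes positive and none negative. The median dKO effect was 0.22 in Jak2V617F and -0.36 in Jak2WT, and the median interaction was 0.60, from 0.47 to 0.74 with each library left out. Mki67, a marker of cycling cells, was at 115 and 109 FPKM in Jak2WT GLUT1/3 WT and at 59.0 and 82.3 in Jak2WT dKO, but at 42.9 and 49.7 in Jak2V617F GLUT1/3 WT and at 70.0 and 74.0 in Jak2V617F dKO. The dKO clones of the 2 backgrounds overlapped in Mki67, while their GLUT1/3 WT clones were far apart. Ndc80, a kinetochore protein gene, also fell in Jak2WT (-0.54) and rose in Jak2V617F (0.47). Birc5 and Aurkb, of the chromosomal passenger complex, rose in Jak2V617F by 0.80 and 0.65 and had Jak2WT effects of -0.13 and -0.27 that were not called.

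**Figure D2:**
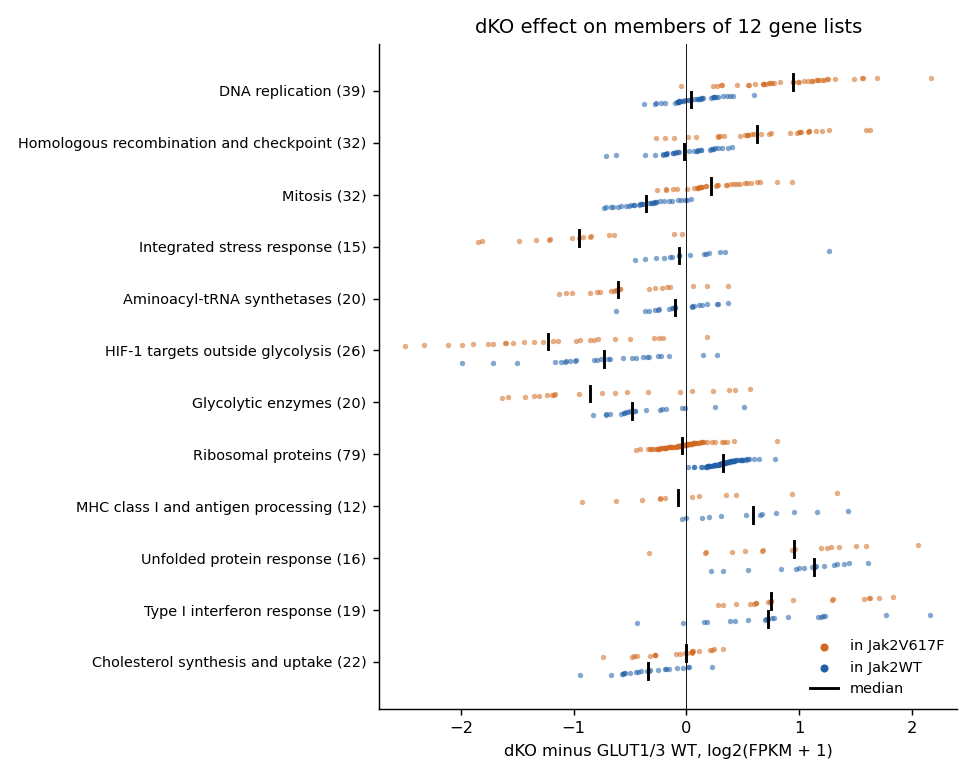
Each point is a tested member of 1 of 12 gene lists, with the number of members in parentheses, placed at its dKO effect in Jak2V617F (orange, upper row) or in Jak2WT (blue, lower row) on the log2(FPKM + 1) scale, and black bars mark medians. The rows for DNA replication separate to the right for Jak2V617F, those for the integrated stress response to the left, and those for the unfolded protein response and the interferon response lie together.

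Targets of the integrated stress response fell in Jak2V617F dKO and mostly did not pass the test in Jak2WT dKO. This response lowers general translation and, through the factor ATF4, raises genes for amino acid supply. Of 15 tested members 13 were called lower in Jak2V617F and 2 higher in Jak2WT, against 16.2% and 7.62% of all genes. A negative interaction was called for 10 and a positive one for none, against 5.91% and 4.72%. By voom 11 were called negative and none positive, and at an unadjusted limma p below 0.05 there were 12 and 0. The median interaction was -1.08, between -1.17 and -0.96 with each library left out. Atf5, a transcription factor of this response, was at 11.1 and 11.6 FPKM in Jak2WT GLUT1/3 WT, 33.4 and 24.7 in Jak2WT dKO, 28.1 and 33.5 in Jak2V617F GLUT1/3 WT and 13.6 and 19.9 in Jak2V617F dKO, so the order of GLUT1/3 WT and dKO was inverted (interaction -2.12, standard error 0.28, limma adjusted p = 0.0116). Slc7a11, the cystine importer, was between 4.27 and 5.41 FPKM in Jak2WT and went from 5.61 and 8.85 to 0.94 and 1.58 in Jak2V617F. Nupr1, which encodes a small stress-induced chromatin protein, was between 4.12 and 4.97 FPKM in Jak2WT and went from 2.88 and 3.98 to 0.17 and 0.33 in Jak2V617F. Cth, which makes cysteine from cystathionine, was at 1.52 and 2.56 FPKM in Jak2V617F GLUT1/3 WT and at most 0.11 elsewhere. It passed the expression filter through that group alone, which favoured a negative interaction, so its call is no support for the list.

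Genes of amino acid supply, many of which ATF4 is known to regulate, had called negative interactions too, in a minor part of each list. Among amino acid transporters 5 of 14 were called negative and none positive, against 5.91% of all genes, and 3 of the 5 (Slc7a11, Slc7a5 and Slc3a2) are also among the 10 called stress response targets. Slc38a2, which imports neutral amino acids, was at 34.7 and 33.2 FPKM against 51.1 and 53.04 in Jak2WT and at 62.8 and 77.2 against 37.2 and 41.1 in Jak2V617F, thus it rose by 0.60 and fell by 0.82. Slc7a5 and Slc3a2, which together form the large neutral amino acid exchanger, had interactions of -1.13 and -1.08. Among 8 serine and one-carbon enzymes only Mthfd2 and Phgdh, of mitochondrial one-carbon and serine synthesis, were called, at -1.1 and -0.79. The share of all genes called negative was 5.91%. Of 20 cytosolic aminoacyl-tRNA synthetase genes, 14 fell in Jak2V617F, against 16.2% of all genes, and 7 had a called negative interaction, against 5.91%, with none positive. Sars, Nars, Tars and Eprs led them at -1.20, -0.97, -0.84 and -0.78, and each had a Jak2WT effect between -0.10 and 0.12.

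The unfolded protein response of the endoplasmic reticulum, in contrast, rose in both backgrounds. Of 16 members 13 were called higher in Jak2V617F and 14 in Jak2WT, against 13.7% and 7.62% of all genes, with median effects of 0.95 and 1.13. Hspa5, which encodes the chaperone BiP, was at 238 and 247 against 649 and 629 FPKM in Jak2WT and at 190 and 152 against 472 and 499.6 in Jak2V617F. Its dKO effects of 1.40 and 1.51 left an interaction of 0.11 (95% interval -0.26 to 0.49). Creld2 and Manf, secreted or resident factors of the same response, had interactions of -0.01 and 0.02 with effects of 1.599 or 1.612 and of 1.34 or 1.35. Members of the list that did differ were Dnajb9 and Herpud1, which serve the degradation of misfolded proteins and rose in Jak2WT (1.00 and 1.23) with effects of -0.33 and 0.18 in Jak2V617F that were not called, and Sdf2l1, a BiP partner that rose more in Jak2V617F (2.05 against 1.31). Sdf2l1 lies on chromosome 16, its interaction went from 0.75 to 0.41 with chromosome medians removed, and it was called in 9 of 18 alternatives. Ccng2, an inhibitory cyclin, and Scd2, a stearoyl-CoA desaturase, fell alike in both backgrounds (effects from -2.02 to -1.33), and the haematopoietic factor gene Lmo2 rose by 1.24 in each. Ccng2, Creld2, Hspa5, Manf, Scd2 and Lmo2 had the largest shared effects among genes whose interaction interval stayed within 0.5 of 0.

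**Figure D3:**
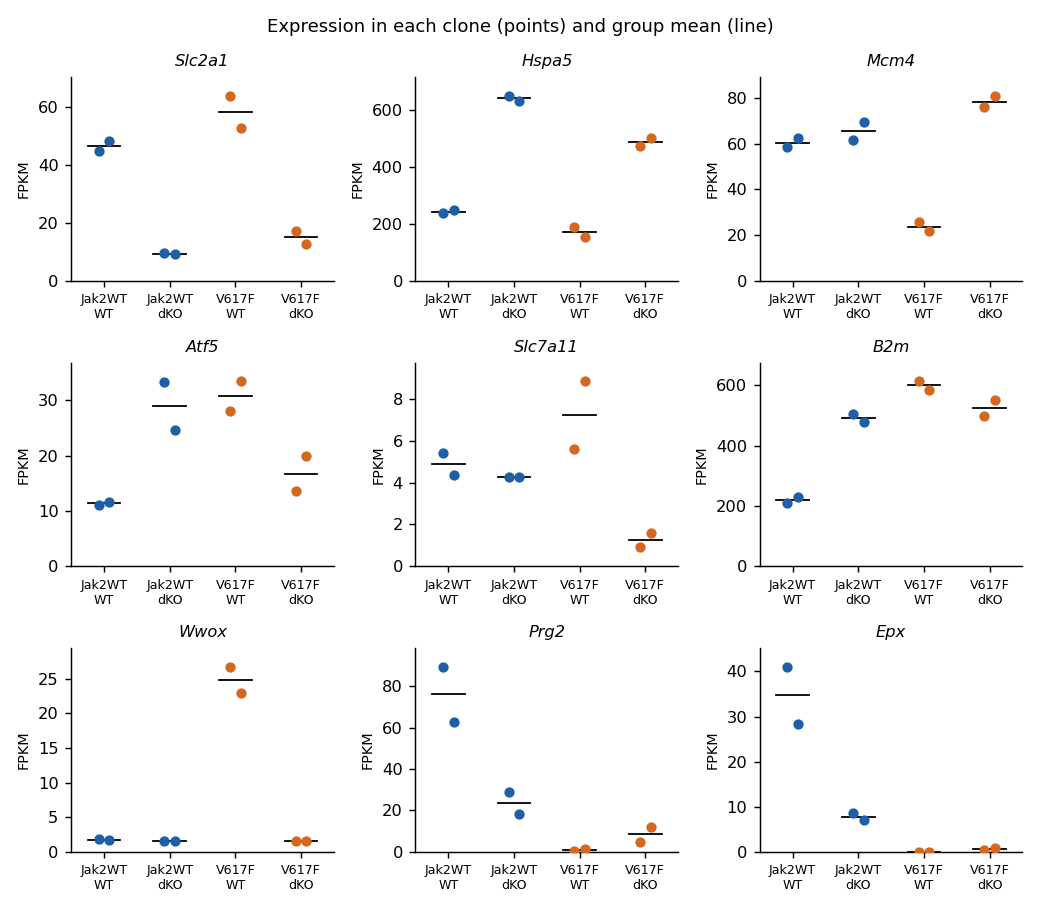
FPKM of 9 genes in each of the 8 clones (points; blue for Jak2WT, orange for Jak2V617F) with group means (lines), on linear axes that start at 0 and differ between panels. Slc2a1 falls and Hspa5 rises in both backgrounds, Mcm4 is low in the Jak2V617F GLUT1/3 WT clones alone, Atf5 changes in opposite directions, and Wwox is high in 1 group.

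Promoters of 3 genes are shown because Cdc6 was called higher and Slc7a11 lower in Jak2V617F, and Hspa5 was called higher in both backgrounds. The sequences are those of RefSeq on GRCm38.p6, from 250 bases before to 50 bases after the start, and their coordinates are of that build and not of the mm39 build of the expression data. Capitals mark matches, on either strand, to the E2F motif TTTCCCGC or TTTGGCGC in Cdc6 (chr11:98907901-98908200, forward), to the ATF4 composite motif TGATGCAA in Slc7a11 (chr3:50443564-50443863, reverse) and to the endoplasmic reticulum stress element, CCAAT and CCACG with 9 bases between them, in Hspa5 (chr2:34771840-34772139, forward).
Cdc6: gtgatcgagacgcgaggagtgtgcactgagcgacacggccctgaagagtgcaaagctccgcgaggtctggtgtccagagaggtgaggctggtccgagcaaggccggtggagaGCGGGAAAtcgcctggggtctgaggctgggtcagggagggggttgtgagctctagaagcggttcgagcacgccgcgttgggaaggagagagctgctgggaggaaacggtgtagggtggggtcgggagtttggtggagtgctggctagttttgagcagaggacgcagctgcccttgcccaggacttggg
Slc7a11: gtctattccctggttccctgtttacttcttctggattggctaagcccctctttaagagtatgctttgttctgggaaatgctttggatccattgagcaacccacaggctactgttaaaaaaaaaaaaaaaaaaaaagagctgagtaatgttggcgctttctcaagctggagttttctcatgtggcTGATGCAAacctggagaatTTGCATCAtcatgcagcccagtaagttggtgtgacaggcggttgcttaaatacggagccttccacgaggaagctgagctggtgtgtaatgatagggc
Hspa5: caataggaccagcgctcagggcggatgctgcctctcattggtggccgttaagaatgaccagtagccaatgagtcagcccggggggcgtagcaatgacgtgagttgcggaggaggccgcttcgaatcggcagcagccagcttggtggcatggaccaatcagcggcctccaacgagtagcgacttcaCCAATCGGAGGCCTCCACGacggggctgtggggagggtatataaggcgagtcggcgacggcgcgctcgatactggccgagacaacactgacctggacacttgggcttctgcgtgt

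The stress element was found in 7 of the 14 unfolded protein response members that had a promoter entry and in 0.13% of the 27025 promoters searched. These were a single promoter per gene symbol, of expressed and other genes alike, and none came from chromosome 18. Members on that chromosome, such as Nars, were counted as without an entry. The ATF4 motif was found in 2 of 12 members of the integrated stress response, Slc7a11 and Nupr1, and in 0.929% of the promoters searched. The E2F motif was found in none of 28 mitotic genes and in 1.63% of the promoters searched. For DNA replication, homologous recombination and checkpoints, and the synthetases fewer than 80% of the members had an entry, so no share was taken. The E2F motif was held by 12 of 31 and by 4 of 23 members in the first and second of these lists, and the ATF4 motif by 4 of 13 synthetase genes. A match describes the letters and does not show that a factor binds there.

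Of 79 ribosomal protein genes 30 rose and none fell in Jak2WT dKO, while in Jak2V617F dKO 2 rose and 3 fell. Over all genes 7.62% rose and 6.06% fell in Jak2WT, and 13.7% and 16.2% in Jak2V617F. The interaction was below 0 in 73 of the 79 and called in 14, all negative, against 5.91% of all genes, with a median of -0.39, and voom called 30 negative and none positive. With libraries scaled to the same total the median was -0.19, and that of ribosome biogenesis genes went from -0.27 to -0.09. Rpl13a went from 35.9 and 38.9 to 61.6 and 56.1 FPKM in Jak2WT, and the Jak2V617F clones were at 61.6, 64.7, 56.9 and 61.7. Rps7 likewise went from 317 and 343 to 477 and 497 FPKM in Jak2WT and was between 504 and 588 in Jak2V617F. Rpl13 differed from these, with 504 and 484 against 380 and 345 FPKM in Jak2V617F and 254 to 333 in Jak2WT, where its effect of 0.26 was not called. Reads of ribosomal proteins can also be placed on their many pseudogenes, which makes single members uncertain. In ribosome biogenesis 5 of 26 were called negative and none positive, beside the same 5.91%, with Gnl3 (-0.84), Npm1 (-0.77), Nop14 (-0.73) and Ncl (-0.55) in front and Dkc1 (-0.54), looked up after its value was seen, as the fifth. Myc, which drives both groups of genes, was at 101 and 105 against 122 and 124.5 FPKM in Jak2WT and fell from 160.2 and 154 to 124 and 104 in Jak2V617F (interaction -0.72, limma adjusted p = 0.0248).

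Some MHC class I genes had a similar order of groups. Of 12 tested, 7 rose in Jak2WT dKO, 3 rose and 3 fell in Jak2V617F dKO, and 8 had a called negative interaction with none positive, as they also had by voom. The shares of all genes were 7.62% higher in Jak2WT, 13.7% higher and 16.2% lower in Jak2V617F, and 5.91% with a negative interaction. B2m, the light chain of class I molecules, went from 210.1 and 228 to 506 and 477 FPKM in Jak2WT, and in Jak2V617F it was at 613 and 585 against 499 and 551 (interaction -1.36, standard error 0.13, limma adjusted p = 0.00867). Tap2, a subunit of the peptide transporter, had another order, since it was between 25.3 and 29.6 FPKM in Jak2WT and fell from 77.2 and 72.4 to 38.9 and 38.6 in Jak2V617F. H2-D1 and Erap1 had interactions of -0.91 and -0.75, and H2 genes share reads with close relatives. Most interferon-responsive genes rose in both backgrounds instead, 17 of 19 in Jak2V617F and 13 of 19 in Jak2WT, beside 13.7% and 7.62% of all genes, with median effects of 0.75 and 0.72. Stat2 was the 1 member called lower in Jak2WT (-0.44) and had a positive interaction (0.77), and that of Ifi27 was negative (-0.86). Oasl2 had an interaction of 0.92 that was called in 6 of the 18 alternatives and was 0.70 with a pseudocount of 0.1 and 0.25 by voom.

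Glycolytic enzymes and targets of the hypoxia-inducible factor HIF-1 fell in both backgrounds for a part of each list, and some of them fell further in Jak2V617F. Of 20 glycolytic enzymes 13 were called lower in Jak2V617F and 9 in Jak2WT, against 16.2% and 6.06% of all genes. Pfkfb1, looked up after its value was seen, was called higher in Jak2V617F (0.56), and 11 of the 20 did not pass the test in Jak2WT. Of the 20, 5 had a negative and 1 a positive interaction, against 5.91% and 4.72% of all genes, with a median of -0.47 that was -0.28 under the same total. Pfkl, a phosphofructokinase subunit, went from 67.6 and 71.8 to 51.9 and 43.8 FPKM in Jak2WT and from 92.1 and 82.7 to 33.5 and 30.1 in Jak2V617F (interaction -0.89, limma adjusted p = 0.0188). Pgam1 and Aldoa had interactions of -0.87 and -0.85, and Pfkfb2, which sets fructose 2,6-bisphosphate, was the positive member (0.74), with no called effect in either background. Of 26 HIF-1 targets outside glycolysis 22 fell in Jak2V617F and 17 in Jak2WT, with 8 negative and 1 positive interaction, against the same shares of all genes. The positive member was Narf (0.94), which was looked up after its value was seen. Egln1, the oxygen sensor that marks HIF-1 for degradation, went from 48.3 and 48.9 to 32.4 and 27.7 FPKM in Jak2WT and from 74.0 and 58.0 to 17.2 and 14.5 in Jak2V617F. P4ha1, Bnip3 and the glycogen branching enzyme gene Gbe1 had interactions of -1.20, -0.99 and -1.43.

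Txnip, which is switched on by glucose-derived sugar phosphates and restrains glucose uptake, went the other way. It was at 54.4 and 62.0 FPKM in Jak2WT GLUT1/3 WT and 10.3 and 16.2 in Jak2WT dKO, and at 24.6 and 29.2 against 17.6 and 17.9 in Jak2V617F. The fall of 2.08 in Jak2WT was called and the Jak2V617F effect of -0.57 was not, and the interaction was 1.51 (standard error 0.27, limma adjusted p = 0.0195). The Jak2V617F GLUT1/3 WT clones thus stood between the Jak2WT clones with and without transporters. Among the GLUT family, Slc2a8 fell in Jak2WT (3.79 and 4.09 to 2.33 and 2.61 FPKM) and had an effect of 0.09 in Jak2V617F (interaction 0.60, limma adjusted p = 0.0368). Slc2a9 rose in both backgrounds, by 0.69 and 0.56, and Slc2a6 had an interaction of 0.10, and 7 of the 12 family members did not reach the filter.

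Other metabolic lists are given by their counts, to be read against the 10.6% of all genes that were called. Limma called no member in fatty acid oxidation (17 tested) or in cholesterol synthesis and uptake (22 tested). At an unadjusted limma p below 0.05 there were 3 negative interactions in the former and 6 positive ones in the latter, and voom called 2 negative and 4 positive. These are to be read against 3570 of all 11818 genes at that unadjusted p, and against 762 positive and 992 negative by voom. Cpt1a, the carnitine palmitoyltransferase of the outer mitochondrial membrane, had an interaction of 0.35 (95% interval -0.16 to 0.85). Of 70 nuclear OXPHOS subunits, 2 were positive and 4 negative, with Atp5j at 0.90, Ndufa5 at 0.72, Atp5g2 at -0.67 and Cox4i1 at -0.63. Of 13 genes of the mitochondrial genome, mt-Atp8 was called, at -1.52, and its reading frame overlaps that of mt-Atp6, so reads of the pair may be split. Of 19 enzymes of the tricarboxylic acid cycle 3 were called, and of these Pcx and Ogdh were positive (0.65 and 0.59) and Suclg2 negative (-0.60). Srebf1, the regulator of lipid synthesis genes, had an interaction of 0.65, and Gfpt1, the first enzyme of hexosamine synthesis, rose in Jak2WT and had an interaction of -0.46 that was called in 4 of the 18 alternatives. Of 17 antioxidant enzymes 3 were called, of which Hmox1 and Gpx1 had interactions of -0.85 and -0.84 and the other was Slc7a11.

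Erythroid genes rose more in Jak2V617F dKO for some members and not for others. Of 8 globin genes, 7 were called higher in Jak2V617F and 2 in Jak2WT, and Hba-x and Hbb-bh1 had a called positive interaction (3.08 and 2.05). Over all genes the shares were 13.7%, 7.62% and 4.72%. Voom called no globin, at an unadjusted limma p below 0.05 there were 4, and the interaction of Hbb-bh1 was -0.25 by voom. Of all 11818 genes voom called 1754, and 3570 had such an unadjusted p. Globins share reads with close copies, and the values of single members are uncertain. Alad, the second enzyme of heme synthesis, went from 17.6 and 14.8 to 86.1 and 67.5 FPKM in Jak2V617F, with 17.6 to 22.9 in Jak2WT (interaction 1.95, limma adjusted p = 0.00867). Kel, which encodes the Kell blood group protein, rose in both backgrounds, from 10.8 and 11.1 to 85.7 and 69.1 FPKM in Jak2V617F and from 0 and 0.062 to 1.19 and 0.56 in Jak2WT. Its interaction of 1.87 reflects the pseudocount of 1, since with a pseudocount of 0.1 it was -0.05 and by voom -2.97. Ank1, of the red cell membrane skeleton, had an interaction of 1.38. These genes do not stand for their lists. Of 18 red cell membrane and iron genes 3 were called positive and 1 negative, Rhag (-2.34), and 11 of the 18 interactions were below 0, with a median of -0.12. Of 15 genes of heme synthesis and breakdown 3 were called positive and 2 negative, Hmox1 (-0.85) and Slc25a38 (-0.61), the latter looked up after its value was seen. Both counts are to be read against 4.72% positive and 5.91% negative over all genes.

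Receptors and other cell type genes followed no common direction. Csf2rb and Csf2rb2, the near-identical beta chains that serve interleukin-3, were called negative (-0.87 and -0.94), as was the interleukin-4 receptor gene Il4ra (-0.80), looked up after its value was seen. Of 8 cytokine receptor genes tested these 3 were called negative and 1 positive, beside 10.6% of all genes. Csf2rb went from 190 and 162 to 150 and 114 FPKM in Jak2WT and from 127 and 131 to 55.4 and 48.9 in Jak2V617F. Of 14 genes in a list of STAT5 feedback and targets that also held Jak2, Socs1 and Pim1 were called, at 1.21 and -0.61. This stands beside 10.6% of all genes. Socs1, on chromosome 16, went to 0.87 with chromosome medians removed. Cebpe, a factor of late granulocyte development, fell in Jak2V617F from 18.0 and 16.3 to 4.20 and 6.80 FPKM and had an interaction of -0.99 that was called in 5 of the 18 alternatives. It was the 1 called member of 19 lineage transcription factors, beside 10.6% of all genes. Limma called no member among 11 granulocyte granule genes or 5 mast cell and basophil genes, with 3 and 2 at an unadjusted p below 0.05 and 2 and 0 calls by voom. Of all 11818 genes 3570 had such an unadjusted p and voom called 1754. In the latter list Cpa3, a mast cell protease gene, was between 50.8 and 100.5 FPKM in Jak2WT and at most 1.67 in Jak2V617F. Of 7 eicosanoid genes 2 were called positive, Alox5 and Ptgs1, and 2 negative, Anxa1 (-2.57) and Pla2g4a (-0.47), beside 10.6% of all genes. Alox5 rose from 0.58 and 0.78 to 20.3 and 9.28 FPKM in Jak2V617F and from 2.65 and 2.08 to 7.37 and 6.36 in Jak2WT, and Ptgs1 fell in Jak2WT and rose in Jak2V617F (-0.84 and 0.61). Of 18 p53 targets 3 were called, Pidd1 positive (1.28) and Gadd45a and Zmat3 negative (-1.16 and -1.12). Of 21 genes of the BCL2 family and caspases 3 were called, Pidd1 again and, negative, Bcl2l2 (-0.74) and Mcl1 (-0.52), the last of which went to -0.24 with chromosome medians removed. Both counts stand beside 10.6% over all genes.

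The level of whole chromosomes differed between Jak2V617F clones and not between Jak2WT clones. For each chromosome the median log2 deviation from the 8-clone mean was taken over genes whose FPKM reached 3 in every library. Over 20 chromosomes the 4 Jak2WT clones differed by at most 0.047. In Jak2V617F, chromosome 16 stood at -0.26 and -0.27 in the GLUT1/3 WT clones and at 0.13 and 0.02 in the dKO clones. Chromosomes 3 and 13 stood at -0.32 and -0.33 in Jak2V617F dKO clone 1 and at -0.05 and 0.07 in Jak2V617F dKO clone 3, and chromosome 5 stood at -0.21 in Jak2V617F dKO clone 3 and at -0.01 in dKO clone 1. Chromosome 16 accordingly had a median interaction of 0.26 over 375 genes, with 58 called positive and 6 negative (17.1% called), and chromosome 3 had -0.24 over 559 genes, with 4 positive and 55 negative.

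**Figure D4:**
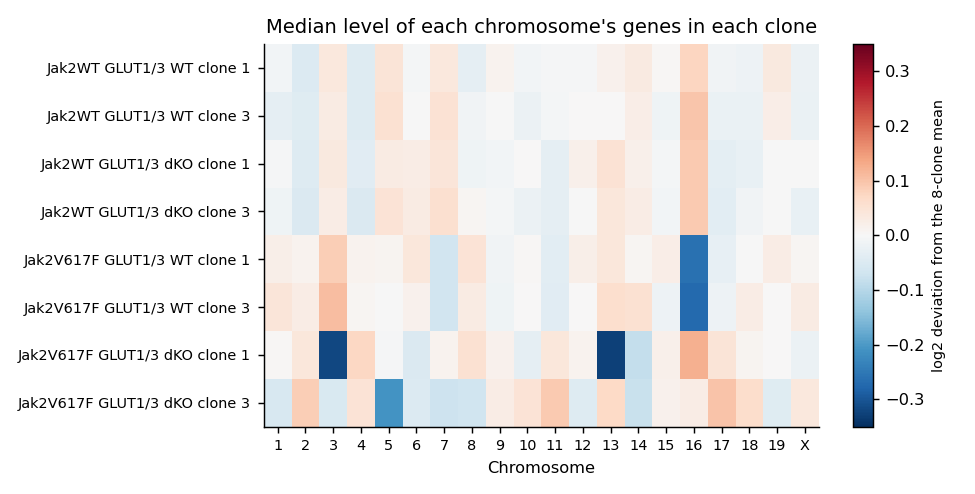
Rows are the 8 clones, columns are chromosomes, and colour gives the median log2 deviation of the chromosome's genes from their mean over the 8 clones (red above, blue below). The Jak2WT rows are nearly the same, while chromosome 16 is low in both Jak2V617F GLUT1/3 WT clones, chromosomes 3 and 13 are low in Jak2V617F dKO clone 1 and chromosome 5 is low in Jak2V617F dKO clone 3.

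The number of chromosomes per cell was not measured, and its part in these levels was not tested. Outside chromosomes 3, 5, 13 and 16, 1033 of 9659 genes were called (10.7%). When each library's chromosome medians were removed, an analysis chosen after seeing the data, 571 genes were called positive and 717 negative, 1025 of them among the 1256. The median interaction of DNA replication genes was then 0.96, that of integrated stress response targets -1.06 and that of MHC class I genes -0.59. For genes on the shifted chromosomes single values changed more. Mcm4 and Cdc45, both on chromosome 16, went from 1.58 to 1.24 and from 1.44 to 1.1, Sars on chromosome 3 went from -1.20 to -0.92, Atp5j on chromosome 16 went from 0.90 to 0.57, and Phgdh on chromosome 3 went from -0.79 to -0.51. Others moved away from 0, with Gbe1 on chromosome 16 going from -1.43 to -1.77 and Txnip on chromosome 3 from 1.51 to 1.80.

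**Figure D5:**
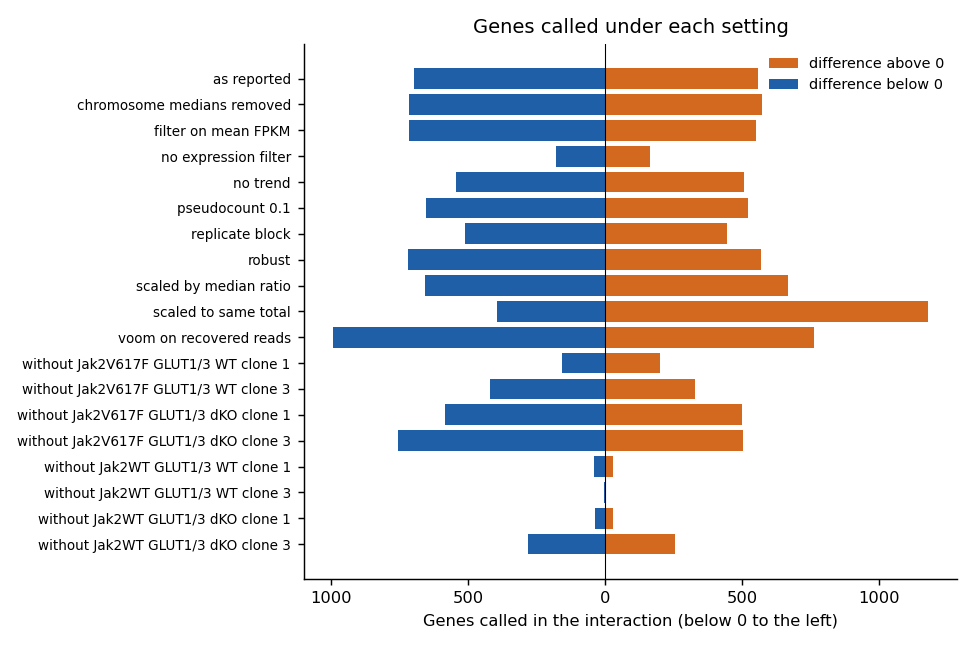
Bars to the right and left give the number of genes called with a positive (orange) and a negative (blue) interaction as reported and under each alternative, on a shared linear axis. The reported counts are 558 and 698. They turn mostly positive when libraries are scaled to the same total, and fall to between 2 and 41 a side when Jak2WT GLUT1/3 WT clone 1 or 3 or Jak2WT dKO clone 1 is left out.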

How the data were processed

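RNA of 8 clonal cultures of 32D cells, 2 clones in each of 4 groups, was sequenced as paired-end poly(A) libraries. The deposited values are FPKM per gene, made by the authors with tools listed in the submitters' processing notes as HISAT2 2.2.1, featureCounts 2.0.6 and fastp 1.0.1, with the mm39 build. The annotation version and strand setting are not given in the sources used here. Whole reads were recovered from FPKM and gene length (100% of values within 0.01 of a whole number, 16846011 to 48884329 reads a library). FPKM carries no correction for library composition.

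Genes that reached an FPKM of 1 in 2 or more libraries were kept (11818 of 56748). Log2(FPKM + 1) was fitted with 4 group means by limma 3.58.1 in R 4.3.3, with an intensity trend and Benjamini-Hochberg adjustment over all genes at 0.05. Log2 differences on this scale understate changes of low genes. The script was tested on simulated data. Intervals are 95% intervals of the fit. No pair of clones was alike within sampling noise. The 4 differences between single dKO and GLUT1/3 WT clones of one background lay on one side of those of the other in all 1256 called genes and in 46.8% of all genes.

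Genes are named by rule: both transporters and Jak2, the 12 highest and 12 lowest called interactions, the 6 largest that were called in opposite directions, the 6 largest shared effects with an interaction interval within 0.5 of 0, up to 4 called members of each of 39 gene lists (or its defining members), the GLUT family and the RT-qPCR genes. Some genes that the rule takes are not reported here. The genes and lists were chosen with earlier results of these data known. Promoters and guides were searched by exact letters on both strands. Of the alternatives, 17 were planned (pseudocount, filter, scaling, trend, robust fit, replicate block, voom on recovered reads and leaving out each library), and removal of chromosome medians was chosen after seeing the data.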

Additional observations from a re-analysis of the deposited data

Results flagged for a closer look

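Of the 149 named genes, 123 are listed here because the dKO effect differed between Jak2V617F and Jak2WT in a test of that difference (the limma interaction, adjusted over all genes). Values in parentheses are interactions on the log2(FPKM + 1) scale, positive where the dKO effect was higher in Jak2V617F. No explanation of them was tested.

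The most positive interactions were those of Prg2 (3.96), Sval1 (3.60), Hba-x (3.08), Trbv13-2 (3.05), Thbs1 (2.98), ENSMUSG00002075556 (2.78), Gm26189 (2.76), Trbv12-2 (2.68), Gm52987 (2.68), Epx (2.56), Muc20 (2.31), Arnt2 (2.10), Hbb-bh1 (2.05), Alad (1.95), Alox5 (1.91) and Kel (1.87). Next came E2f2 (1.63), Ccne1 (1.6), Mcm4 (1.58), Cdc6 (1.57), Txnip (1.51), Mxd3 (1.51), Brca1 (1.5), Clspn (1.46), Ptgs1 (1.46), Rrm2 (1.46), Cdc45 (1.44), Ank1 (1.38), Tk1 (1.38), Fen1 (1.35), E2f7 (1.35) and Mki67 (1.30). Smaller positive interactions were those of Pidd1 (1.28), Rad54l (1.21), Socs1 (1.21), Bard1 (1.20), E2f1 (1.17), Dut (1.13), Tyms (1.12), Pcna (1.04), Ndc80 (1.01), Birc5 (0.93), Aurkb (0.93), Oasl2 (0.92), Atp5j (0.90), Chek1 (0.81), Stat2 (0.77) and Sdf2l1 (0.75). The least positive were those of Pfkfb2 (0.74), Ndufa5 (0.72), Pcx (0.65), Srebf1 (0.65), Slc2a8 (0.60) and Ogdh (0.59).

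The most negative interactions were those of Xdh (-3.73), Wwox (-3.27), 1810073O08Rik (-2.65), Anxa1 (-2.57), Tspoap1 (-2.57), Ablim1 (-2.50), Slc22a3 (-2.42), Sele (-2.42), Myct1 (-2.35), Abcc2 (-2.34), Rhag (-2.34), Actg2 (-2.33), Ctse (-2.15), Atf5 (-2.12), Slc7a11 (-1.70) and Nupr1 (-1.69). After these came mt-Atp8 (-1.52), Cth (-1.51), Gbe1 (-1.43), Slc38a2 (-1.42), B2m (-1.36), Dnajb9 (-1.33), Egln1 (-1.31), Sars (-1.20), P4ha1 (-1.20), Gadd45a (-1.16), Slc7a5 (-1.13), Zmat3 (-1.12), Mthfd2 (-1.1), Slc3a2 (-1.08), Tap2 (-1.07) and Herpud1 (-1.05). Middle ranks were held by Bnip3 (-0.99), Cebpe (-0.99), Nars (-0.97), Csf2rb2 (-0.94), H2-D1 (-0.91), Pfkl (-0.89), Csf2rb (-0.87), Pgam1 (-0.87), Ifi27 (-0.86), Hmox1 (-0.85), Aldoa (-0.85), Tars (-0.84), Gpx1 (-0.84), Gnl3 (-0.84), Il4ra (-0.80) and Phgdh (-0.79). Smaller negative interactions were those of Eprs (-0.78), Npm1 (-0.77), Erap1 (-0.75), Bcl2l2 (-0.74), Gp9 (-0.73), Rpl13a (-0.73), Nop14 (-0.73), Myc (-0.72), Rpl13 (-0.70), Rpl9 (-0.70), Atp5g2 (-0.67), Rps7 (-0.63), Cox4i1 (-0.63), Slc25a38 (-0.61), Pim1 (-0.61) and Max (-0.61). The least negative were those of Suclg2 (-0.60), Ncl (-0.55), Mcl1 (-0.52), Pla2g4a (-0.47) and Gfpt1 (-0.46).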

How the results depend on the processing

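Leaving out each library in turn gave 2 to 502 positive and 3 to 754 negative interactions, 1079 to 1358 higher and 1017 to 1684 lower genes in Jak2V617F, and 74 to 1077 higher and 36 to 897 lower genes in Jak2WT. Among the called genes there were then 1 to 95 with opposite called effects, 1 to 389 of the same sign and larger in Jak2V617F, 0 to 43 larger in Jak2WT, and 5 to 759 with a smaller background difference among dKO clones. The clones of one group lay outside the other libraries in 2 to 394 (Jak2WT GLUT1/3 WT), 0 to 251 (Jak2WT dKO), 5 to 748 (Jak2V617F GLUT1/3 WT) and 2 to 769 (Jak2V617F dKO) called genes. The median interaction was -0.06 to -0.03. The low ends for the interaction counts came without Jak2WT GLUT1/3 WT clone 3 (5 calls), and 63 and 68 calls were left without Jak2WT dKO clone 1 and Jak2WT GLUT1/3 WT clone 1. A group with 1 library left was assumed to vary like the others, and the cause was not tested.

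Without an expression filter, with 25788 genes in the adjustment, there were 165 positive and 181 negative interactions, 402 higher and 312 lower genes in Jak2WT, 24 with opposite called effects, 87 and 13 of the same sign and larger in Jak2V617F and in Jak2WT, 245 with a smaller background difference among dKO clones, and 127, 56, 215 and 157 with the group's clones outside the others, in the order above. Scaling to the same total gave 1177 positive and 393 negative interactions (75% positive against 44.4%), 1378 lower genes in Jak2WT and 130 with opposite called effects. Voom on recovered reads gave 1091 lower genes in Jak2WT and 143 with opposite called effects. The direction of the median turned under the same total in the lists for the unfolded protein response (-0.05 to 0.15), OXPHOS (-0.12 to 0.07), the tricarboxylic acid cycle (-0.05 to 0.14), the red cell membrane (-0.12 to 0.06), lineage factors (-0.09 to 0.09), granule genes (-0.14 to 0.05), the BCL2 family (-0.04 to 0.15), STAT5 targets (-0.04 to 0.15) and eicosanoid enzymes (-0.13 to 0.06), and from values near 0 in the MondoA and Myc list (to 0.14) and fatty acid oxidation (to 0.19). It shrank for synthetases (-0.38 to -0.19), serine enzymes (-0.29 to -0.12), p53 targets (-0.28 to -0.10) and HIF-1 targets (-0.48 to -0.29). It grew by over 1.5 times for nucleotide synthesis (0.16 to 0.35), cholesterol genes (0.20 to 0.37), fatty acid synthesis (0.28 to 0.47), pentose phosphate and hexosamine enzymes (0.10 to 0.28), the GLUT family (0.10 to 0.17), the mitochondrial genome (0.10 to 0.29), heme genes (0.27 to 0.43), megakaryocyte genes (0.22 to 0.41) and antioxidant enzymes (0.07 to 0.26). The causes of these moves were not tested.

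With the clone number as a replicate block there were 446 positive and 510 negative interactions, 39 genes of the same sign and larger in Jak2WT and 136 with the Jak2WT dKO clones outside the others. Deviations of same-numbered clones correlated between -0.254 and 0.152, so the numbers do not pair the clones. Interactions turned sign for Hbb-bh1 (-0.25) and Kel (-2.97) by voom and for Kel (-0.052) with a pseudocount of 0.1. Among the named genes with a called interaction, those called in at most 7 of the 18 alternatives were Gfpt1 and Gp9 (4), Cebpe (5), Slc22a3, Hbb-bh1, Mcl1, Ogdh, Myct1, Pla2g4a and Oasl2 (6), and Pfkfb2, Ncl, Socs1, Max and Erap1 (7).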
